A study of Homo sapiens with 9 samples.

Results

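The genes of serine synthesis, folate one-carbon metabolism and the ATF4 amino acid response were followed in TC32 cells by bulk RNA-seq. TC32, an established line from Ewing sarcoma with the fusion EWS::FLI1, was the single model used, and its labelled genotype was WT. Members were the 39 listed genes, found by their symbols among the 60603 genes of the deposited table, and all 39 were among the 16093 genes tested. They comprised 3 enzymes of serine synthesis, 7 enzymes of serine-to-glycine conversion and folate chemistry, 2 of transsulfuration, 7 other amino acid enzymes, 6 transcription regulators, 5 stress effectors and 9 amino acid transporters. The 3 groups of 3 libraries, given as biological replicates, were sampled at 30 h. The siEF cells received the siRNA over the fusion breakpoint, the siNEG cells a nonspecific siRNA and the Media cells no siRNA. Every group was grown in serum with L-glutamine added and carried the batch label 1. The question of the experiment was which genes the fusion induces or represses, and Media gave the level without transfection.

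Serine is made from a glycolytic intermediate by PHGDH, PSAT1 and PSPH, and its hydroxymethyl carbon enters the folate pool through the SHMT enzymes, with the MTHFD enzymes interconverting the folate carriers in cytosol and mitochondria. ATF4 is a transcription factor translated when eIF2 is phosphorylated, as under amino acid shortage or endoplasmic reticulum (ER) stress, so that its mRNA level and its protein activity can part. It pairs with C/EBP proteins on composite elements near genes of amino acid synthesis, uptake and tRNA charging, and serine synthesis has been studied as a dependency of Ewing sarcoma cells.

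Because much of this biology is read from the composite element, the promoter windows of the members were searched for it. RefSeq windows on GRCh38.p14, running from 250 bases before to 50 after a start site, were matched for 32 of the 39 members. The letters TGATGNAA, with N for any base and on either strand, stood in at least 1 window of 9 of these 32 genes (28.1%), against 1217 of 27305 RefSeq genes (4.46%). Counted by window, as 15 members had more than 1, the share was 20.4% of 54 against 3.62% of 35116. Here a match shared by overlapping windows, as in MTHFD1L, was counted more than once. The shorter TGATG, which TGATGNAA contains, was in the windows of 37.5% of the members and 37.7% of all genes. Holders of the full motif were ASNS, CEBPG, CHAC1, MTHFD1L, SLC1A4, SLC1A5, SLC3A2, SLC7A1 and SLC38A1. The 5 with the motif upstream of an annotated start are shown because they span an enzyme of asparagine synthesis, a folate enzyme, a C/EBP factor, a stress effector and a transporter. Capitals mark the match, and each stretch of 40 bases is written 5′ to 3′ on the strand of its gene.
ASNS: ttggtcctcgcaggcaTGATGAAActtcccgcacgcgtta
MTHFD1L: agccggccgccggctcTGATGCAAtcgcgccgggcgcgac
CEBPG: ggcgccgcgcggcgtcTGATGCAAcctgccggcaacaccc
CHAC1: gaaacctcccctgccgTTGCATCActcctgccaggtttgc
SLC1A5: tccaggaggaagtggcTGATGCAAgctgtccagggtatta
The stretches lie at chr7:97872453-97872492 (minus strand), chr6:150866341-150866380, chr19:33374055-33374094 and chr15:40953246-40953285 (plus strand) and chr19:46784888-46784927 (minus strand). In ASNS the match began 68 bases before the start site, in CEBPG 42, in SLC1A5 97 and in CHAC1 209, where the match lay on the opposite strand and the stretch as printed shows TTGCATCA. In MTHFD1L the same match lay 129 or 90 bases before the start, depending on the annotated start used. In another MTHFD1L window a match began 24 bases past the start. A match of letters is a description of the window and not evidence of binding. The set was chosen in part as genes of the ATF4 response, so its share above that of all genes is not an independent finding.

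Library totals ranged from 20727706 expected counts, in siEF replicate 2, to 33134581. Levels are CPM, the counts relative to a TMM-scaled library size in units of 1000000 reads, with factors from 0.970 to 1.03. The 10 most abundant genes took 12.3% to 12.9% of the counts in siEF and 5.78% to 6.62% in the other libraries. FLI1, the 3′ part of the targeted fusion, was at 38.4, 35.5 and 39.3 CPM in siEF, 48.6, 48.5 and 48.0 CPM in siNEG and 59.5, 56.2 and 57.9 CPM in Media. Its siEF libraries lay below every other library, with 78.2% of the siNEG level left. The study's methods report a larger change of 3 cycles in its own qPCR check of the silencing. Why the qPCR and the FLI1 counts differ was not tested. Of the Ewing sarcoma markers CD99, NKX2-2, NR0B1 and STEAP1, the last 3 were lower in siEF by log2 fold changes of -1.44, -2.97 and -2.29, while CD99 was at 189 CPM in siEF and 161 CPM in siNEG. Among markers of other lineages, MYOD1 and MYOG had 0 counts in every library, PTPRC had at most 6 counts in a library, and EPCAM was at 0.308 to 0.470 CPM in siEF, 0 to 0.0884 CPM in siNEG and 0.317 to 0.454 CPM in Media, near 0 throughout.

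Silencing of the fusion was accompanied by lower mRNA of most of the set, with a few members well above siNEG. Against siNEG, 12 of the 39 members were called lower and 4 called higher in siEF (edgeR's quasi-likelihood test with Benjamini-Hochberg adjustment over all genes tested). A call needed both an adjusted P under 0.01 and a size above 1 on the log2 fold scale. Of all tested genes, 11.7% were called lower and 17.1% higher, and of the members 30.8% and 10.3%. By adjusted P alone, 27 members were lower (69.2%) and 8 higher (20.5%), where the shares of all genes were 31.7% and 33.6%. The remaining 4 were CBS, ATF4, ATF5 and SLC3A2. The counts of calls were 12 and 4 with TMM, RLE and upper quartile scaling alike. No siEF library overlapped the siNEG libraries for 36 of the 39 members (92.3%), 28 below and 8 above, and for 76.9% of all genes. The median log2 fold change was -0.68 for the members and 0.05 for all genes, and the members ran from -2.82 (SLC1A4) to 2.93 (DDIT4). Summed over the 39 genes, the level was 4109.8 ± 24.9 CPM in siEF, 4904 ± 21.9 CPM in siNEG and 5996 ± 123 CPM in Media (SD, n = 3 each). These are levels in RNA of whole cultures, in which fewer cells of a kind and less RNA per cell cannot be told apart. Every log2 fold change (log2 change for short), standard error (SE) and adjusted P given for a gene comes from the same fit of edgeR's quasi-likelihood test over all 9 libraries.

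**Figure D1:**
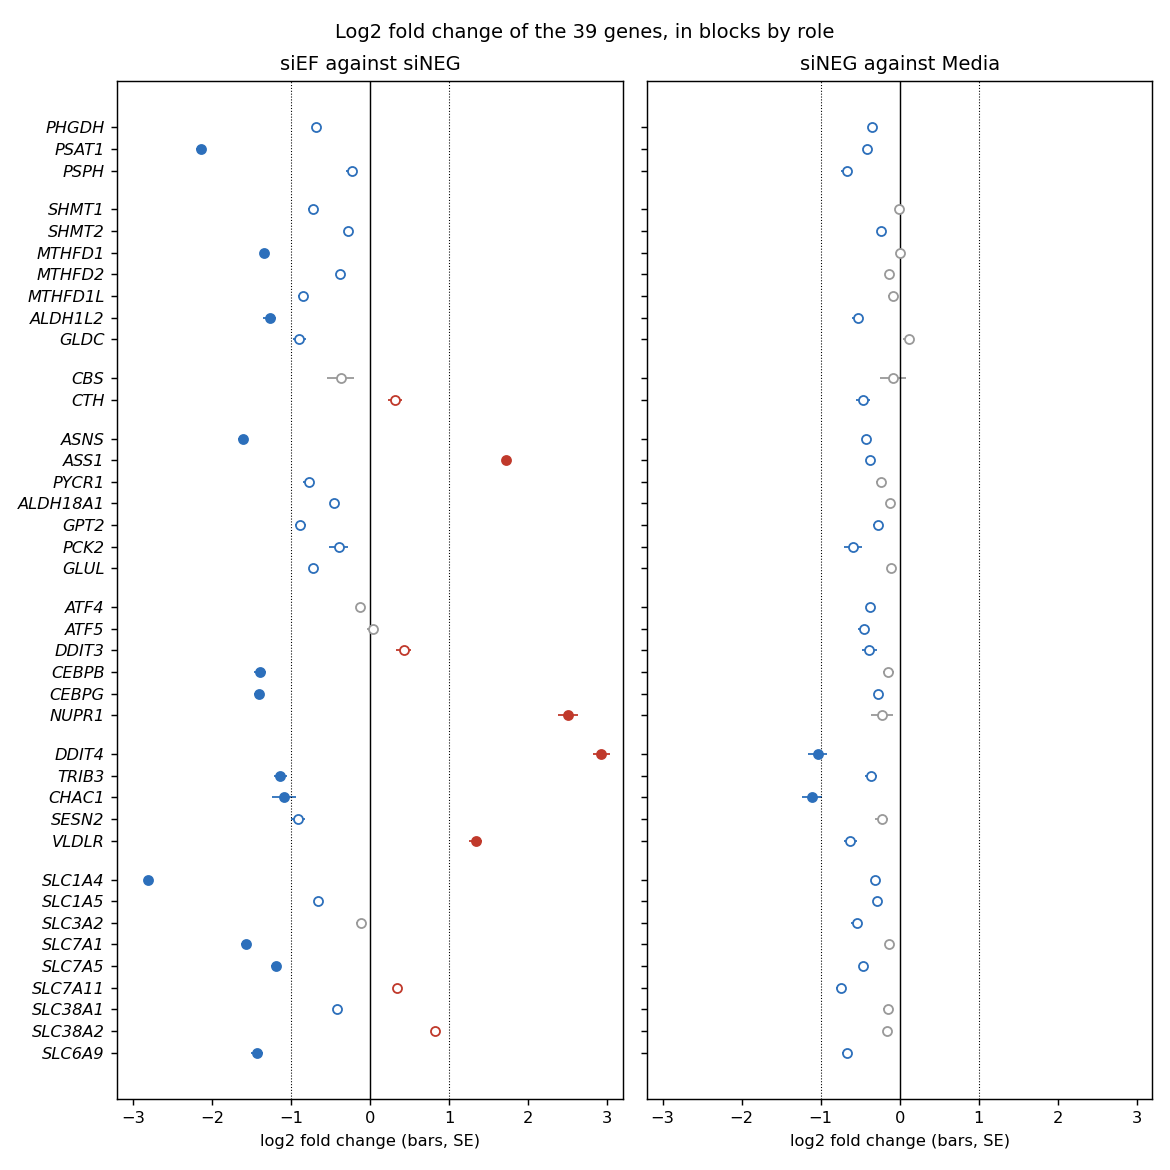
Fitted log2 fold change (horizontal axis, bars SE) of each of the 39 members, in blocks by role, for siEF against siNEG (left) and siNEG against Media (right). Filled points were called, open coloured points passed the adjusted P alone and grey points did not, and dotted lines mark a log2 fold change of 1 either way. On the left 12 filled points lie below -1 and 4 above 1, and on the right 37 of 39 points lie below 0.

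The 3 enzymes of serine synthesis all fell, PSAT1 by far more than its neighbours. PSAT1 (ENSG00000135069.14, chr9:78297125-78330093, plus strand), which transaminates the PHGDH product, was at 53.8, 60.8 and 52.3 CPM in siEF, 247, 250.2 and 239.8 CPM in siNEG and 324, 339.5 and 315 CPM in Media. The 3 groups did not overlap, and the log2 fold change against siNEG was -2.15 (SE 0.06, adjusted P = 5.19e-15), a 4.43-fold lower level. PHGDH, the first and committing enzyme, stood at 140.0 ± 5.18 CPM in siEF and 224 ± 3.42 CPM in siNEG, with a log2 change of -0.68 (SE 0.05, adjusted P = 3.82e-09). PSPH, the phosphatase of the last step, was at 18.8, 18.7 and 18.0 CPM in siEF, 23.0, 20.9 and 21.3 CPM in siNEG and 36.1, 35.2 and 32.5 CPM in Media. Its distance from siNEG was small, log2 change -0.23 (SE 0.07, adjusted P = 0.00619), and the call by adjusted P was lost under 7 of 18 alternative settings. These included leaving out any siEF library, siNEG replicate 1 or siNEG replicate 3, where the adjusted P was between 0.0101 and 0.0279. Over all 18 settings, Media as the control included, its adjusted P ran from 2.7e-09 to 0.069. The summed level of the 3 enzymes was 214 ± 9.93 CPM in siEF, 491 ± 4.79 CPM in siNEG and 646 ± 32.0 CPM in Media. Per kilobase of the canonical transcript, PSAT1 and PHGDH were close in siNEG, at 111 ± 2.38 and 120.1 ± 1.84 CPM per kb, and apart in siEF, at 25.2 ± 2.05 and 75.0 ± 2.78 CPM per kb.

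All 7 enzymes that move carbon from serine through folate were lower in siEF, MTHFD1 and ALDH1L2 by enough to be called. MTHFD1 (ENSG00000100714.17, chr14:64388031-64463457, plus strand), the trifunctional cytosolic folate enzyme, was at 122, 125 and 121 CPM in siEF, 306, 309 and 317 CPM in siNEG and 308, 312 and 306 CPM in Media. The siEF libraries lay far below both controls, which overlapped, and the log2 change was -1.34 (SE 0.04, adjusted P = 2.26e-14). MTHFD2, its mitochondrial partner, was at 238, 239 and 241 CPM in siEF, 325, 306 and 302 CPM in siNEG and 330.4, 347 and 343 CPM in Media, a log2 change of -0.38 (SE 0.04, adjusted P = 4.65e-07). ALDH1L2 (ENSG00000136010.14, chr12:105019784-105107643, minus strand), the mitochondrial formyltetrahydrofolate dehydrogenase, was at 8.42, 10.3 and 8.95 CPM in siEF, 22.4, 21.7 and 22.4 CPM in siNEG and 30.6, 34.0 and 31.4 CPM in Media. Its 3 groups were fully separated, and the log2 fold change against siNEG was -1.27 (SE 0.08, adjusted P = 4.41e-10). The 4 other enzymes passed the adjusted P without reaching the fold cut-off. SHMT1, the cytosolic serine hydroxymethyltransferase, changed by -0.72 on the log2 scale and the mitochondrial SHMT2 by -0.29. MTHFD1L, the mitochondrial formate-producing synthetase, changed by -0.84, and GLDC, the decarboxylase of the glycine cleavage system, by -0.90. The block summed to 673 ± 16.2 CPM in siEF, 1078 ± 3.61 CPM in siNEG and 1156 ± 22.4 CPM in Media.

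In transsulfuration, which turns homocysteine into cysteine, CTH was higher in siEF than in siNEG and the reads of CBS with its copy CBSL were lower. CTH, the cystathionine gamma-lyase, was at 18.3, 15.8 and 18.7 CPM in siEF, 14.4, 14.9 and 13.2 CPM in siNEG and 19.8, 20.9 and 18.1 CPM in Media. Its siEF libraries lay above those of siNEG, log2 change 0.32 (SE 0.09, adjusted P = 0.00375), and overlapped those of Media. This call was lost with DESeq2 (adjusted P = 0.0116) and without siEF replicate 1 or 3 or siNEG replicate 1 or 3 (adjusted P between 0.0153 and 0.0254). Over all 18 settings, Media as the control included, its adjusted P ran from 0.00052 to 0.12. CBS, the synthase before it, shares reads with the near-identical copy CBSL, and 93.8% of their summed reads were assigned to CBSL. The CBS row alone overlapped between the groups, with a log2 change of -0.37 (SE 0.17, adjusted P = 0.0566), which became -0.58 (adjusted P = 0.000866) without siNEG replicate 3. Over all 18 settings, Media as the control and the sum with CBSL included, the adjusted P ran from 1.2e-07 to 0.25. The low end is that of the sum and not of the CBS row. The sum of both rows was 125 ± 5.57 CPM in siEF, 178 ± 4.11 CPM in siNEG and 210.2 ± 13.4 CPM in Media, and it fell by 0.51 on the log2 scale (SE 0.05, adjusted P = 1.22e-07, edgeR's quasi-likelihood test).

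Among the other amino acid enzymes, 6 of 7 were lower in siEF and ASS1 was higher. ASNS (ENSG00000070669.17, chr7:97851677-97872542, minus strand), the asparagine synthetase and a textbook target of ATF4, was at 31.3, 33.6 and 29.4 CPM in siEF, 96.4, 96.6 and 94.6 CPM in siNEG and 134, 129 and 125 CPM in Media. The 3 groups formed separate steps, and ASNS was 3.06-fold lower in siEF than in siNEG, log2 change -1.61 (SE 0.06, adjusted P = 1.59e-13). ASS1 (ENSG00000130707.17, chr9:130444961-130501274, plus strand), the argininosuccinate synthase that lets cells make arginine from citrulline, went the other way, with 222, 220.2 and 212 CPM in siEF, 68.0, 65.5 and 64.5 CPM in siNEG and 95.2, 81.4 and 79.3 CPM in Media. Its level in siEF was 3.31-fold that of siNEG, log2 change 1.73 (SE 0.06, adjusted P = 1.9e-13). GLUL, the glutamine synthetase, had 107, 119 and 112 CPM in siEF, 185, 186 and 185 CPM in siNEG and 204, 202 and 194 CPM in Media, a log2 change of -0.72 (SE 0.05, adjusted P = 3.96e-10). PYCR1 and ALDH18A1, both enzymes of proline synthesis, changed by -0.78 and -0.46 on the log2 scale. GPT2, the mitochondrial alanine aminotransferase, fell to 54.2% of siNEG. PCK2, the mitochondrial PEP carboxykinase, was low in all groups, at 4.48, 6.22 and 5.93 CPM in siEF, 7.90, 7.10 and 6.83 CPM in siNEG and 10.6, 11.1 and 11.1 CPM in Media. The siEF and siNEG libraries of PCK2 lay close together, log2 change -0.40 (SE 0.12, adjusted P = 0.00881), and the call was lost under 10 of 18 alternative settings, with an adjusted P of up to 0.0646 without siEF replicate 1 and of 0.0104 to 0.0244 without siEF replicate 3, siNEG replicate 1 or 2 or Media replicate 2. Over all 18 settings, Media as the control included, its adjusted P ran from 1.6e-06 to 0.065.

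**Figure D2:**
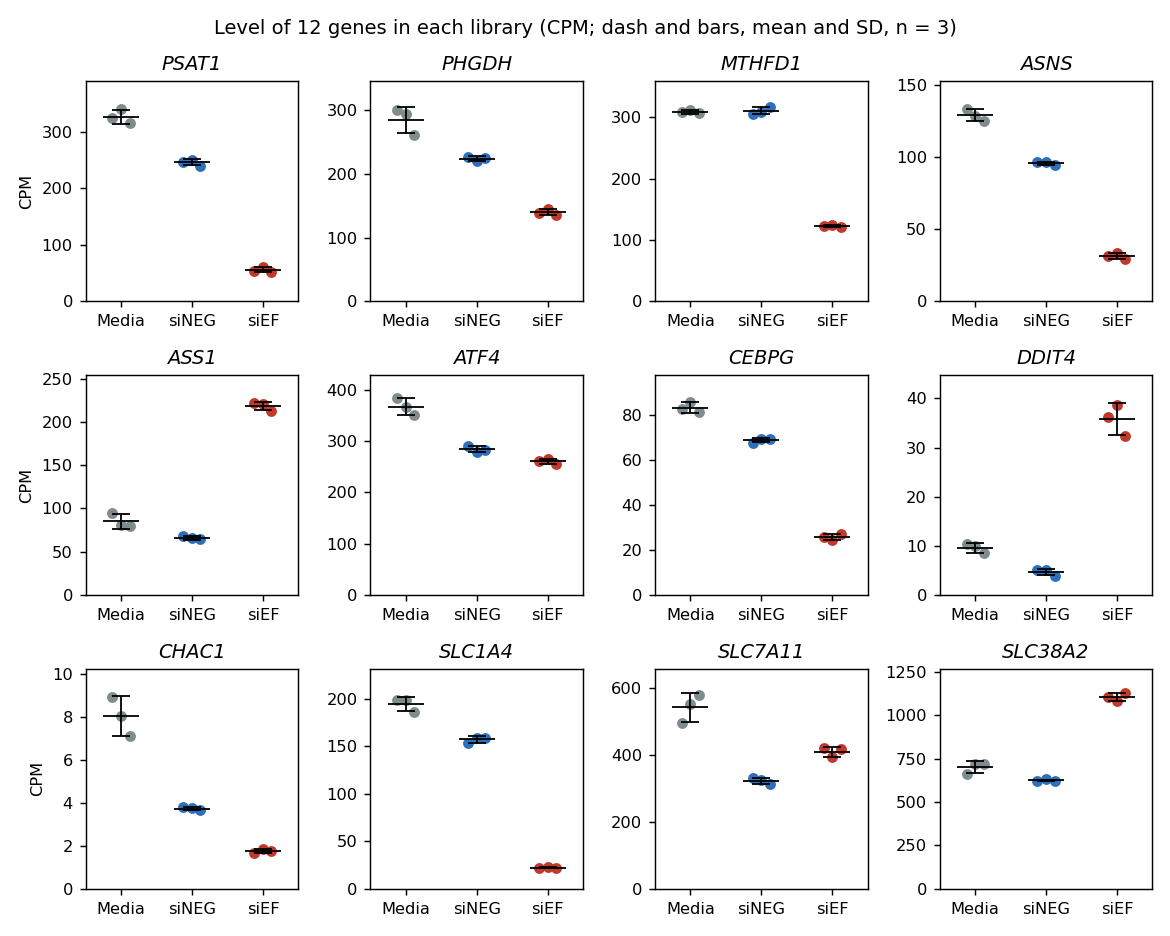
Level (vertical axis, CPM, starting at 0) of 12 members in each library of Media, siNEG and siEF, with dashes at the mean and bars for the SD (n = 3). PSAT1, PHGDH, MTHFD1, ASNS, ATF4, CEBPG, CHAC1 and SLC1A4 are lowest in siEF, ATF4 by little against siNEG. ASS1, DDIT4 and SLC38A2 are highest there, and SLC7A11 in siEF lies between siNEG and Media.

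The mRNA of ATF4 itself differed little between siEF and siNEG, while its C/EBP partners fell. ATF4 was at 262, 264 and 255 CPM in siEF, 291, 278 and 283 CPM in siNEG and 383, 366 and 351 CPM in Media. The siEF libraries lay below the siNEG libraries, but by a log2 change of -0.13 (SE 0.04, adjusted P = 0.0144), which missed the adjusted P cut-off of 0.01. Under 7 of 18 alternative settings it passed, among them DESeq2 (adjusted P = 0.00113) and the fits without Media replicate 1 or 3 (0.00363 and 0.00626). Over all 18 settings, Media as the control included, its adjusted P ran from 1.9e-08 to 0.42. ATF5, a close relative, overlapped between the groups at 34.6 ± 2.36 CPM in siEF and 33.9 ± 1.79 CPM in siNEG, a log2 change of 0.03 (SE 0.07, adjusted P = 0.678) that became -0.0103 when siEF replicate 1 or siNEG replicate 2 was left out. CEBPG (ENSG00000153879.9, chr19:33373685-33382686, plus strand), which forms heterodimers with ATF4, was at 25.7, 24.2 and 27.3 CPM in siEF, 67.6, 69.1 and 69.3 CPM in siNEG and 82.7, 85.7 and 81.0 CPM in Media, log2 change -1.41 (SE 0.06, adjusted P = 1.25e-12). CEBPB (ENSG00000172216.5, chr20:50190830-50192668, plus strand), another C/EBP factor, was at 32.6, 37.5 and 33.2 CPM in siEF, 90.0, 87.8 and 92.8 CPM in siNEG and 109.6, 98.3 and 90.9 CPM in Media, log2 change -1.39 (SE 0.07, adjusted P = 2.24e-11). For both genes every siEF library was below every control library.

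DDIT3 and NUPR1, regulators induced by stress, were higher in siEF. DDIT3, which encodes CHOP, was at 13.4 ± 0.418 CPM in siEF, 9.95 ± 0.992 CPM in siNEG and 13.0 ± 0.904 CPM in Media, a log2 change of 0.42 (SE 0.09, adjusted P = 0.000664) against siNEG and 0.04 against Media. NUPR1 (ENSG00000176046.8, chr16:28532708-28539008, minus strand), a small stress-induced chromatin regulator, was at 28.1, 27.9 and 28.2 CPM in siEF, 5.59, 3.57 and 5.71 CPM in siNEG and 5.58, 6.06 and 5.59 CPM in Media. The control libraries overlapped each other and all lay well below siEF, a 5.68-fold higher level than in siNEG, log2 change 2.51 (SE 0.12, adjusted P = 1.59e-11).

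The 5 stress effectors split, with 3 lower and 2 higher in siEF. DDIT4 (ENSG00000168209.5, chr10:72273919-72276036, plus strand), which encodes the mTORC1 inhibitor REDD1, was at 36.1, 38.7 and 32.3 CPM in siEF, 5.12, 5.01 and 3.91 CPM in siNEG and 10.4, 9.93 and 8.52 CPM in Media. Its rise was 7.60-fold, log2 change 2.93 (SE 0.11, adjusted P = 4.41e-13), and it was the largest of the 39 members, from a siNEG level that was itself below Media. VLDLR (ENSG00000147852.16, chr9:2621182-2660056, plus strand), a lipoprotein receptor gene known as an ATF4 target, was at 21.7, 21.6 and 23.6 CPM in siEF, 9.29, 8.81 and 8.40 CPM in siNEG and 14.5, 13.6 and 12.6 CPM in Media, log2 change 1.34 (SE 0.08, adjusted P = 2.45e-10). Against Media the log2 change of VLDLR was 0.72, short of the fold cut-off. TRIB3 (ENSG00000101255.11, chr20:362835-397559, plus strand), a pseudokinase in negative feedback on ATF4, was at 12.4, 13.4 and 12.5 CPM in siEF, 27.6, 29.6 and 27.1 CPM in siNEG and 38.5, 37.7 and 32.0 CPM in Media, log2 change -1.14 (SE 0.08, adjusted P = 1.76e-09). CHAC1 (ENSG00000128965.13, chr15:40952962-40956512, plus strand), which degrades glutathione, was at 1.66, 1.86 and 1.75 CPM in siEF, 3.79, 3.74 and 3.65 CPM in siNEG and 8.95, 8.06 and 7.12 CPM in Media, log2 change -1.09 (SE 0.16, adjusted P = 8.77e-06). The 3 groups of CHAC1 did not overlap. TRIB3 and CHAC1 lay close to the fold cut-off, and a test against that cut-off itself (edgeR's glmTreat) gave them adjusted P = 0.0705 and 0.413. SESN2, a leucine-sensing inhibitor of mTORC1, had a log2 change of -0.92 (SE 0.09, adjusted P = 8.24e-08).

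Transporters held both the largest fall of the set and its most abundant gene, which rose. SLC1A4 (ENSG00000115902.11, chr2:64988477-65023865, plus strand), the neutral amino acid exchanger ASCT1 that carries serine, was at 21.8, 23.2 and 22.2 CPM in siEF, 153, 159 and 159 CPM in siNEG and 199, 199 and 186 CPM in Media. It was 7.04-fold lower in siEF than in siNEG, log2 change -2.82 (SE 0.05, adjusted P = 9.35e-17). Its paralog SLC1A5, the glutamine transporter ASCT2, fell by less, log2 change -0.66 (SE 0.05, adjusted P = 3.39e-09). SLC7A1 (ENSG00000139514.13, chr13:29509414-29595688, minus strand), the cationic amino acid transporter for arginine and lysine, was at 35.3, 39.1 and 37.8 CPM in siEF, 103, 114 and 116 CPM in siNEG and 117, 122 and 126 CPM in Media, log2 change -1.57 (SE 0.06, adjusted P = 5.86e-13). SLC6A9 (ENSG00000196517.11, chr1:43991500-44031467, minus strand), the glycine transporter GLYT1, was at 8.85, 7.49 and 8.05 CPM in siEF, 22.6, 22.5 and 21.3 CPM in siNEG and 35.7, 34.3 and 35.0 CPM in Media, log2 change -1.44 (SE 0.08, adjusted P = 3.4e-11). The siEF libraries lay below both controls for each of these genes.

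SLC7A5 and SLC7A11 both work as heterodimers with the heavy chain SLC3A2, and the 3 mRNAs behaved differently. SLC7A5 (ENSG00000103257.9, chr16:87830023-87869507, minus strand), the large neutral amino acid transporter LAT1, was at 99.6, 112 and 112 CPM in siEF, 237, 254 and 251 CPM in siNEG and 348, 354 and 322 CPM in Media, log2 change -1.20 (SE 0.05, adjusted P = 5.26e-12). SLC3A2 was at 136, 157 and 138 CPM in siEF, 149, 157 and 159.8 CPM in siNEG and 244, 232 and 203 CPM in Media. Its siEF and siNEG libraries overlapped, log2 change -0.11 (SE 0.07, adjusted P = 0.135). SLC7A11, the cystine and glutamate exchanger xCT, was at 420.1, 393 and 417 CPM in siEF, 331, 325 and 313 CPM in siNEG and 496, 553 and 579 CPM in Media. It was higher in siEF than in siNEG, log2 change 0.35 (SE 0.05, adjusted P = 2.27e-05), and lower in siEF than in Media, log2 change -0.40 (SE 0.05, adjusted P = 3.85e-06). SLC38A2, the system A transporter SNAT2 that responds to amino acid shortage, was at 1104, 1079.9 and 1126 CPM in siEF, 621, 629.9 and 621 CPM in siNEG and 660.1, 718 and 720.4 CPM in Media, log2 change 0.82 (SE 0.04, adjusted P = 4.2e-11). SLC38A1, its neighbour in the family, went down, log2 change -0.42 (SE 0.05, adjusted P = 2.25e-06). Summed over the 9 transporters, siEF had 2173 ± 29.1 CPM, siNEG 2128 ± 27.7 CPM and Media 2727 ± 70.3 CPM, and the siEF and siNEG sums overlapped. SLC38A2 alone made up 1103 ± 23.2 CPM of the sum in siEF and 624 ± 5.10 CPM in siNEG. By adjusted P, 6 of the 9 were lower in siEF than in siNEG (66.7%) and 2 higher (22.2%), against 31.7% and 33.6% of all tested genes.

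A ratio of 2 genes within a library does not depend on how libraries are scaled, and 10 pairs of paralogs or partners were compared in this way. The log2 ratio of MTHFD2 to MTHFD1 was 0.97, 0.94 and 1.00 in siEF and 0.09, -0.01 and -0.07 in siNEG, a shift of 0.96. The shift was 0.44 for SHMT2 to SHMT1 and 0.50 for MTHFD1L to MTHFD1. These 3 chosen folate pairs moved toward the mitochondrial enzyme, and MTHFD1 is the denominator in both MTHFD pairs. ALDH1L2 and its cytosolic paralog ALDH1L1 were not among the 10 pairs and went the other way. The mitochondrial ALDH1L2 changed by -1.27 on the log2 scale and ALDH1L1, outside the set, by 0.13 (adjusted P = 0.421, edgeR's quasi-likelihood test). For SLC1A4 to SLC1A5 the log2 ratio was -2.68, -2.61 and -2.65 in siEF and -0.55, -0.46 and -0.48 in siNEG, a shift of -2.15. SLC38A2 to SLC38A1 shifted by 1.24, SLC7A5 to SLC3A2 by -1.08, SLC7A11 to SLC3A2 by 0.46 and CTH to the sum of CBS and CBSL by 0.82. In these 8 pairs the siEF and siNEG libraries did not overlap, and the two-sided exact permutation test gave p = 0.1, the smallest it can give with 3 against 3 (0.125 after Benjamini-Hochberg adjustment over the 10 pairs). This design therefore cannot reach 0.05. ATF5 to ATF4 shifted by 0.16 (exact permutation p = 0.2) and CEBPG to CEBPB by -0.02 (exact permutation p = 1), the latter between -0.0925 and 0.0802 with 1 library left out.

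**Figure D3:**
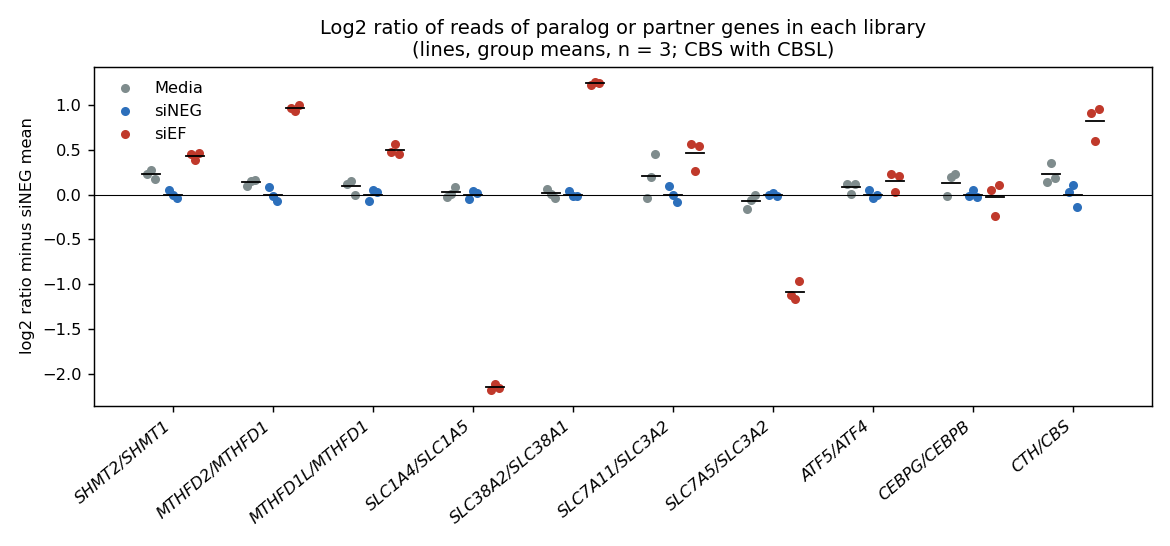
Log2 ratio of the reads of 2 genes in each library, minus the siNEG mean of that pair (vertical axis), for 10 pairs, with CBS and CBSL summed and lines at group means (n = 3). In 8 pairs all siEF points lie outside the siNEG points, lowest for SLC1A4/SLC1A5 at -2.15 and highest for SLC38A2/SLC38A1 at 1.24.

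Transfection with the nonspecific siRNA was itself accompanied by lower levels of much of the set. Between siNEG and Media, 24 of the 39 members were lower (61.5%) and 0 higher by adjusted P under 0.01, where 5.96% of all tested genes were lower and 3.83% higher (edgeR's quasi-likelihood test). At an unadjusted P under 0.05, 33 were lower and 0 higher, and DESeq2 gave 27 lower and 0 higher at an adjusted P under 0.01. MTHFD1 (0.01) and GLDC (0.11) had the 2 positive log2 fold changes. The median was -0.31 for the members and -0.0012 for all genes. With the fold cut-off, DDIT4 and CHAC1 were called lower, and 0.429% of all genes were called in either direction. DDIT4 fell from 9.60 ± 0.959 CPM in Media to 4.68 ± 0.668 CPM in siNEG, log2 change -1.04 (SE 0.12, adjusted P = 1.46e-05), and CHAC1 from 8.04 ± 0.912 CPM to 3.73 ± 0.0693 CPM, log2 change -1.11 (SE 0.13, adjusted P = 2.13e-05). The next largest differences were those of SLC7A11, -0.75 (SE 0.05, adjusted P = 1.13e-07), PSPH, log2 change -0.67 (SE 0.06, adjusted P = 2.67e-06), and SLC6A9, -0.66 (SE 0.06, adjusted P = 3.02e-06). VLDLR (-0.62), PCK2 (-0.59), SLC3A2 (-0.54) and ALDH1L2 (-0.53) were also past 0.5 on the log2 scale. The log2 change of siNEG against Media was -0.37 (SE 0.04, adjusted P = 1.61e-05) for ATF4 and -0.45 (SE 0.07, adjusted P = 0.000197) for ATF5.

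By role group, all 3 serine synthesis genes, 6 of 9 transporters, 4 of 6 regulators, 4 of 5 stress effectors and 4 of 7 amino acid enzymes were lower by adjusted P, and 2 of 7 folate enzymes, SHMT2 and ALDH1L2. MTHFD1, SHMT1, MTHFD1L and GLDC, all lower in siEF than in siNEG, had log2 fold changes of 0.01, -0.01, -0.08 and 0.11 here. Among the 24, the adjusted P rose above 0.01, to at most 0.0532, in fits without a single library for GPT2, DDIT3, TRIB3, CEBPG, SHMT2 and PCK2, and the count of lower members was 19 to 26 over these fits. The siRNA and the handling that goes with transfection cannot be told apart here.

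Set directly against Media, which shares its libraries with the comparison above, 16 members were called lower and 3 higher in siEF (12.5% and 17.4% of all genes). PHGDH, PYCR1, GPT2 and SESN2 passed the fold cut-off in this comparison and VLDLR did not. PSAT1 was at -2.56, SLC1A4 at -3.12, ASNS at -2.04 and MTHFD1 at -1.33 on the log2 scale, while ASS1, NUPR1 and DDIT4 stayed above Media by 1.35, 2.29 and 1.89. The log2 change of ATF4 against Media was -0.50 (SE 0.04, adjusted P = 1.93e-08). For CTH and DDIT3, which were above siNEG, the log2 changes from Media were -0.15 (SE 0.08, adjusted P = 0.124) and 0.04 (SE 0.09, adjusted P = 0.712), neither past the cut-off.

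Per kilobase of the canonical transcript, the order of the highest members changed between the groups. In siNEG it ran from ATF4 at 200.2 ± 4.40 CPM per kb through SLC38A2 at 130.1 ± 1.06, PHGDH at 120.1 ± 1.84, PSAT1 at 111 ± 2.38, MTHFD1 at 98.4 ± 1.74 and SHMT2 at 96.1 ± 1.89 CPM per kb (SD, n = 3), the last 2 within about their spread. In siEF it was led by SLC38A2 at 230.1 ± 4.83, ATF4 at 183 ± 3.10 and ASS1 at 142 ± 3.28 CPM per kb.

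Genes outside the set that belong to the same pathways were examined as 7 lists of 120 genes, 115 of them tested. For comparison, 31.7% of all tested genes were lower and 33.6% higher in siEF than in siNEG by adjusted P. With the fold cut-off these shares were 11.7% and 17.1%, and 5.96% were lower in siNEG than in Media by adjusted P. The 20 cytosolic aminoacyl-tRNA synthetases, which charge tRNAs with amino acids, moved mostly down. Of these, 16 were lower (80%) and 1 higher (5%) in siEF than in siNEG by adjusted P. Called lower were 7 (35%), and the median was -0.77. The log2 changes were largest for VARS1 (-1.75), MARS1 (-1.65) and YARS1 (-1.32), the synthetases for valine, methionine and tyrosine. Between siNEG and Media, 5 of the 20 (25%) passed the adjusted P, all lower. The TGATGNAA letters stood in the windows of 7 of 16 synthetase genes (43.8%). Of 26 genes of folate, methionine and glycine cleavage chemistry, 18 were lower (69.2%) and 5 higher (19.2%) by adjusted P. Called lower were 9 of the 26 (34.6%) and called higher 2 (7.69%). PPAT, which opens purine synthesis, went from 105 ± 0.916 CPM in siNEG to 27.8 ± 1.64 CPM in siEF. SFXN3, a mitochondrial serine carrier, rose from 7.19 ± 1.11 CPM to 24.0 ± 1.59 CPM. In this list 2 of 26 genes differed between siNEG and Media, and 0 of 20 windowed genes held the motif.

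Upstream of ATF4, 10 of 14 genes of the eIF2 kinases, eIF2 and eIF2B subunits and phosphatase cofactors were lower and 4 higher by adjusted P. These were 71.4% and 28.6% of the list, against 31.7% and 33.6% of all tested genes. PPP1R15A, the stress-induced cofactor that restores eIF2, rose from 22.8 ± 1.22 CPM to 69.5 ± 3.99 CPM, log2 change 1.61 (SE 0.07, adjusted P = 3.96e-12). PPP1R15B, the other phosphatase cofactor of the list, went the opposite way. It fell from 129 ± 2.08 CPM in siNEG to 54.7 ± 2.88 CPM in siEF, log2 change -1.23 (SE 0.06, adjusted P = 6.13e-12). EIF2B3 and EIF2S1 changed by -1.39 and -1.23 on the log2 scale. The other genes known as ATF4 or stress response targets had a median of 0.80 against siNEG. Of 10 tested, 6 were higher (60%) and 4 lower (40%), while FGF21 had 0 counts in all libraries. Against Media the median of this list was 0.23, with 3 higher and 4 lower by adjusted P. There ADM2, HMOX1 and JDP2, all higher than in siNEG, had log2 changes of 0.18, 0.36 and 0.28 that did not pass the adjusted P. GDF15, a stress cytokine, was at 3.04, 4.60 and 3.08 CPM in siEF and 0.284, 0.0589 and 0.385 CPM in siNEG, and the log2 changes of KLHL24 and ATF3 against siNEG were 2.62 and 1.32. The 4 genes lower than in siNEG were EIF4EBP1 (-1.15), STC2 (-0.89), XPOT (-0.70) and NIBAN1 (-0.69). With the fold cut-off, 4 of the 10 were called higher (40%) and 1 lower (10%), against 17.1% and 11.7% of all tested genes. Of 12 ER chaperone markers 10 were lower (83.3%) and 1 higher (8.33%). SDF2L1 and MANF, both secretory pathway stress genes, changed by -1.80 and -1.36 on the log2 scale, and HERPUD1, a component of ER-associated degradation, by 1.60. By adjusted P, siNEG was below Media for 6 of the 10 stress targets and for 6 of the 12 chaperone markers. These were 60% and 50%, against 5.96% of all tested genes.

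Other amino acid transporters were more often lower than higher in siEF, and other amino acid enzymes more often higher than lower. Of 20 transporters tested, 11 were lower (55%) and 5 higher (25%) by adjusted P, against 31.7% and 33.6% of all tested genes. Their median log2 change was -0.59. SLC1A3, the glial glutamate transporter, fell from 22.9 ± 0.404 CPM to 2.82 ± 0.137 CPM, log2 change -3.01 (SE 0.09, adjusted P = 5.4e-14), and SLC16A10, an aromatic amino acid carrier, changed by -2.01 on the log2 scale. SLC7A8, the LAT2 light chain, rose from 12.3 ± 0.246 CPM to 52.0 ± 1.03 CPM. Of 13 other enzymes of glutamine, glutamate, proline, arginine and aspartate, 4 were lower (30.8%) and 7 higher (53.8%), with a median of 0.36. PRODH, the first enzyme of proline breakdown, was at 12.7 ± 1.39 CPM in siEF and 2.18 ± 0.0955 CPM in siNEG, log2 change 2.54 (SE 0.15, adjusted P = 1.02e-10). GOT1, the cytosolic aspartate aminotransferase, changed by -1.93 on the log2 scale, and GLS2, a glutaminase at no more than 1.12 CPM in a library, by 2.06.

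**Figure D4:**
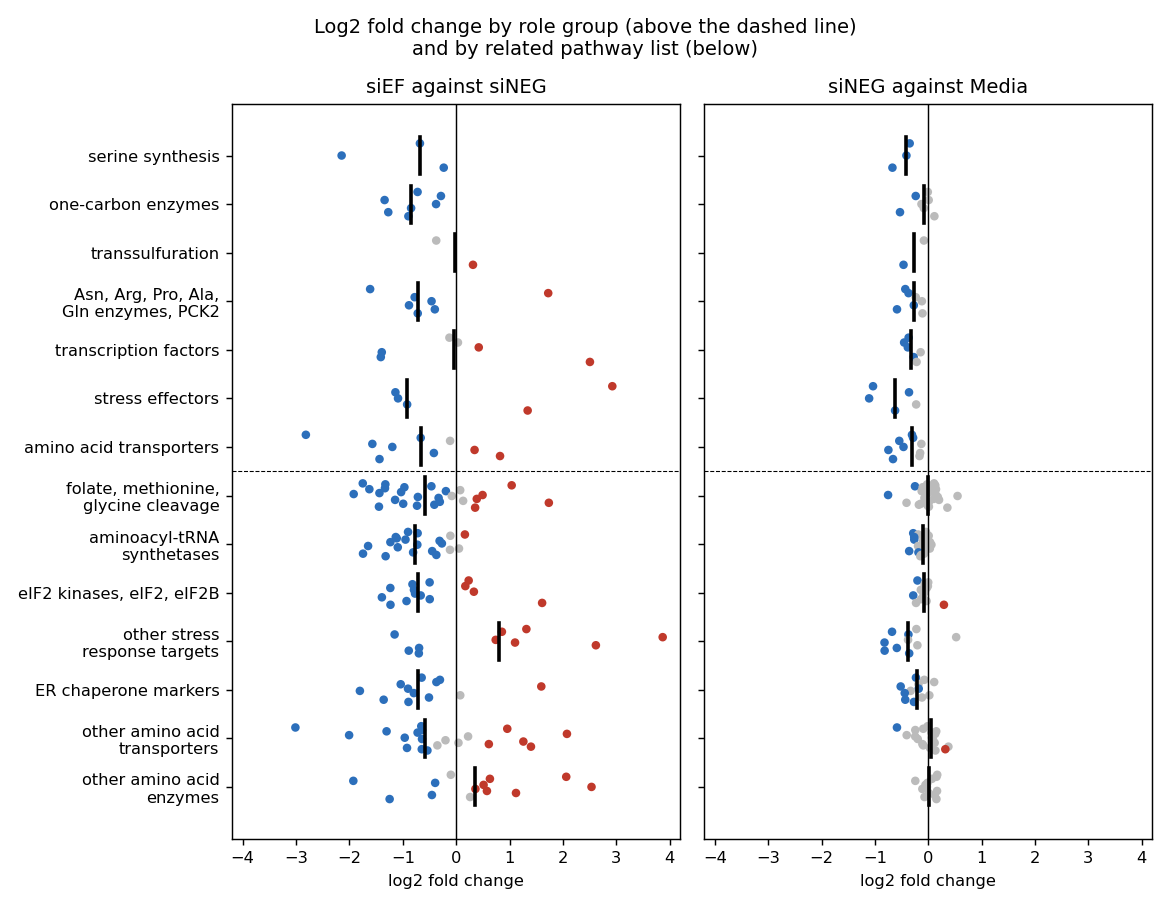
Fitted log2 fold change (horizontal axis) of each gene of the 7 role groups of members (above the dashed line) and the 7 related lists (below), for siEF against siNEG (left) and siNEG against Media (right). Blue and red points were lower and higher by adjusted P under 0.01, grey points were neither, and thick bars mark medians. The median of the aminoacyl-tRNA synthetases is -0.77 on the left, and the other stress targets are centred above 0 there at 0.80.

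Within the members, the motif and the direction can be set side by side. Of the members with a window, 5 of 11 called lower held TGATGNAA (45.5%), 0 of 3 called higher and 4 of 18 not called (22.2%). The share of all RefSeq genes was 4.46%. Of the 4 holders not called, MTHFD1L, SLC1A5 and SLC38A1 were lower by adjusted P and SLC3A2 was not. These counts are small, and a link between motif and direction was not tested. By role, 5 of 8 transporters held it, and 1 of 5 in each of the folate enzymes, other amino acid enzymes, regulators and stress effectors. SLC1A4, the member with the largest fall, held it across its start site, while PSPH, SHMT2, ALDH1L2, PYCR1, GPT2, NUPR1 and SLC7A11 were not searched. The windows of PSAT1 and MTHFD1 did not contain these letters, which says nothing of elements elsewhere in either gene.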

How the data were processed

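The authors trimmed reads with cutadapt 2.10, mapped them to hg38 with STAR 2.7.1a and deposited expected counts per gene from RSEM 1.3.1, neither scaled for depth nor pooled. Annotation release and strand setting are not given in the sources used here. Positions and canonical transcript lengths came from GENCODE release 44, where 60306 of the 60603 genes had an identifier. The 39 members and the 7 lists were chosen with earlier results of these data known.

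The cut-offs for a call are those of the study's methods. Expected counts were rounded, filtered with filterByExpr (16093 genes) and scaled by TMM. Each gene was fitted in edgeR 4.0.16 (R 4.3.3) and compared by its quasi-likelihood F test, with 1 mean per group, all 9 libraries and Benjamini-Hochberg adjustment. SE is the size of the log2 fold change over the square root of F. The script was tested on simulated data. Ratios used a pseudocount of 0.5 count. Chi-square per degree of freedom between replicates was 3.57 to 23.2, so no 2 libraries matched within sampling noise. P-values measure the spread between the replicates of 1 cell line.

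Values in every library were given for members called in siEF against siNEG, for members past an adjusted P of 0.01 and 0.5 on the log2 scale between siNEG and Media, and for the member with the highest CPM in siNEG in each role group. Of each list, counts and up to 3 called genes with the largest changes were given, with further genes for the eIF2 and stress target lists. Some genes of the lists are not reported here. Pseudogene rows held at most 2.2% of the reads of any member and its pseudogenes. Alternatives were upper quartile and RLE scaling, DESeq2 1.42.0, other filters, the 6 libraries compared, a replicate block, Media as the control, glmTreat, an adjusted P under 0.05, the sum of CBS and CBSL, no pseudocount, the TGATG core and each library left out.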

Additional observations from a re-analysis of the deposited data

How the results depend on the processing

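The 12 members called lower and 4 called higher were the same 16 genes with DESeq2, with the replicate block and without each library in turn, and the counts were 12 and 4 under every other setting with siNEG as the control except the test against the cut-off itself (10 and 4). With Media as the control, 15 of the 16 were shared, 5 members were higher by adjusted P, and the median log2 fold change was -0.90. Upper quartile scaling gave a median of -0.59, and it moved the median of all genes by 0.0861. The samples share only a replicate number: deviations of same-numbered libraries correlated between -0.0875 and 0.0482, and the replicate block gave 26 members lower and 8 higher by adjusted P and 24 different between siNEG and Media.

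Without each library in turn, 25 to 28 members were lower and 7 to 8 higher by adjusted P, the median was -0.71 to -0.66, and 19 to 26 members differed between siNEG and Media. The sign reversed for ATF5 (-0.00674 with at least 1 count in total, -0.42 against Media, -0.0103 without siEF replicate 1 or siNEG replicate 2, and -0.0103 to 0.0806 over the libraries left out), CTH (-0.15 against Media), SLC7A11 (-0.40 against Media) and the ratio of CEBPG to CEBPB, which ran from -0.0925 to 0.0802 and was highest without siEF replicate 2. The cause was not tested. With the TGATG core, the share of members was 37.5%. Of the other comparisons of single members with their alternatives, 1041 kept direction and side of the threshold, 51 lost the call and 12 gained it. The siNEG libraries are shared by both main comparisons, so an error in them moves both. Total mRNA per cell was not measured, and 3 libraries per group limit small changes.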
